A study of Mus musculus with 16 samples.

Results

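The genes described here are 50 genes of protein folding and quality control in the endoplasmic reticulum (ER), the compartment in which secreted and membrane proteins are folded. They were picked by symbol from a list of unfolded protein response sensors, ER chaperones, translocon and signal peptidase subunits and components of ER-associated degradation (ERAD). All 50 symbols had a row among the 24010 entries of a mouse liver RNA-seq table, and all 50 passed the filter on low values that left 10677 genes for testing. Messenger RNA was sequenced from livers of C57BL/6 mice that had been injected through the tail vein, under hydrodynamic pressure, with an EEV plasmid. The plasmid either coded for human MANF (hMANF) or was an empty control. There were 4 groups of 4 libraries each, namely old mice with the MANF plasmid, old mice with the empty plasmid, young mice with the MANF plasmid and young mice with the empty plasmid. Old mice were labelled 23 months of age and young mice 5 months, and livers were taken 5 weeks after the injection. All 16 animals were thus injected, and no liver without an injection is among the groups. Hydrodynamic injection reaches mainly hepatocytes, and only some of them, so each library mixes cells that took up the plasmid with cells that did not. The labels give neither the sex of the animals nor the promoter of the plasmid.

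The liver secretes most plasma proteins, so hepatocytes hold an extensive rough ER. When unfolded proteins accumulate in it, the sensors Ern1 (IRE1α), Eif2ak3 (PERK) and Atf6 start the unfolded protein response, in which the transcription factors Xbp1, Atf4 and cleaved Atf6 raise the transcription of chaperones, translocon subunits and ERAD genes. MANF is itself an ER protein that is released under stress and that binds the chaperone BiP, the product of Hspa5.

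The response acts on many of these genes through the ER stress response element, which reads CCAAT, then 9 bases, then CCACG, or through a second form (ERSE-II) that reads ATTGG, then 1 base, then CCACG. Both forms were searched on both strands of RefSeq promoter windows (GRCm38.p6) running from 250 bases before to 50 bases after each annotated transcription start. Of the 50 genes, 43 had a window. The first form was found in 9 of the 43 (20.9%) and in 37 of all 27025 genes with a window (0.137%), and ERSE-II in 2 of the 43 (4.65%) and in 12 of the 27025 (0.0444%). The UPR element core TGACGTGG was found in 3 of the 43 (6.98%), namely Txndc5, Txndc11 and Vcp, and in 193 genes in all (0.714%). The ATF4-type sequence TTGCATCA was found in 1 (2.33%), Herpud1, and in 279 genes in all (1.03%). The 12 sites of the first 2 forms are printed because they mark, within the 43 genes with a window, the 11 whose windows hold an exact match. Near matches and sites outside the windows were not searched for, nor were the genes without a window. Each reads 5′ to 3′ on the strand that carries the motif, with the fixed letters in capitals.
Hspa5 (chr2:34772025-34772043, plus strand): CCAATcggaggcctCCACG
Hsp90b1, nearer site (chr10:86705533-86705551, plus strand): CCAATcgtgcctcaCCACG
Hsp90b1, farther site (chr10:86705638-86705656, minus strand): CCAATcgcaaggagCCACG
Calr (chr8:84847075-84847093, plus strand): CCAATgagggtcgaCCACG
Canx (chr11:50325800-50325818, minus strand): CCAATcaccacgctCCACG
Pdia6 (chr12:17266491-17266509, plus strand): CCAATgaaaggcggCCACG
Creld2 (chr15:88819520-88819538, minus strand): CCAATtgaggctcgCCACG
Dnajc3 (chr14:118937827-118937845, plus strand): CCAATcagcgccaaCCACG
Syvn1 (chr19:6046532-6046550, plus strand): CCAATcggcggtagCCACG
Derl3 (chr10:75893242-75893260, minus strand): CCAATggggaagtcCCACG
Herpud1, ERSE-II (chr8:94386377-94386387, plus strand): ATTGGgCCACG
Dnajb11, ERSE-II (chr16:22857852-22857862, plus strand): ATTGGcCCACG
Capitals mark those fixed letters in every line above. The Hspa5 site ended 47 bases before the annotated start and the Syvn1 site 26 bases before it. The nearer Hsp90b1 site ended 89 bases before its start, while the Dnajb11 site lay 7 to 17 bases after the start and so inside the transcript.

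The 250 bases before the start are printed for 3 genes, none of them called between old MANF and old control livers. They are Hspa5 and Hsp90b1, whose old groups did not overlap, and Herpud1, whose old groups overlapped. Each reads 5′ to 3′ on the gene's strand, with the fixed letters of the searched motifs in capitals. The plus strand is the gene's strand for Hspa5 and Herpud1, and the minus strand for Hsp90b1.
Hspa5 (chr2:34771840-34772089): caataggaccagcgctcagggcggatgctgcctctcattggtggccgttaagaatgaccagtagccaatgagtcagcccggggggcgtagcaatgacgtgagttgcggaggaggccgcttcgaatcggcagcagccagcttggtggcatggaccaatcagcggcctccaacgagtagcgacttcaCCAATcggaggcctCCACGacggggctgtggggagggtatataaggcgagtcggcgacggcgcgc
Hsp90b1 (chr10:86705445-86705694): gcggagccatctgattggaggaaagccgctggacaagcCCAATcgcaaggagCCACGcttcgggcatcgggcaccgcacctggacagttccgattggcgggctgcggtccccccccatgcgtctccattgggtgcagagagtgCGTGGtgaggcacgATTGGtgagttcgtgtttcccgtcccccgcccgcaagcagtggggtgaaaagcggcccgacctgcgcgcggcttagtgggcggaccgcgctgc
Herpud1 (chr8:94386179-94386428): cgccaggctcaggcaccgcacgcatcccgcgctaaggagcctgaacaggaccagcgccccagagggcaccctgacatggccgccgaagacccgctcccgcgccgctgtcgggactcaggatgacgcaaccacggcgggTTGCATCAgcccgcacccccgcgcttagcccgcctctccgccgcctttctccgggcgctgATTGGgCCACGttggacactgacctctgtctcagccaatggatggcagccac
A match says only that these letters stand in the window, and binding was not measured.

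The values are RPKM, read counts divided by gene length and by library depth, as deposited, so that levels of different genes can be set side by side per length. The gene lengths recovered from these values ran from 1108 to 12853 bases among the 50 genes, and the order of levels rests on them. The libraries rested on 18.3 to 26.1 megareads, of which 11.8 to 16.6 megareads were counted in the table's genes. The scarcest value among the 50 genes, Derl3 in a young control liver, still came from 24 reads. Hepatocyte markers summed to 40003 to 47128 RPKM in old MANF livers, 31419 to 45049 in old control, 35979 to 43021 in young MANF and 30082 to 34700 in young control livers. Young MANF replicate 3 and old control replicate 4 stood apart, with a root mean square deviation from their group means over all tested genes of 0.354 and 0.415 on the log2 scale, against 0.181 to 0.277 in the other 14 libraries. In young MANF replicate 3 the tested genes longer than the median length had a median deviation from the 16-library mean of -0.35, against -0.02 for the shorter genes. Among the 50 ER genes the 25 longer had -0.43 there and the 25 shorter -0.16. In old control replicate 4 the Kupffer cell and macrophage markers summed to 1116 RPKM, against 167 to 254 in the other 3 old control livers. The mouse Manf gene, an ER stress gene in its own right, averaged 14.5 ± 3.61 RPKM in old MANF livers, 6.77 ± 1.08 in old control, 11.4 ± 2.70 in young MANF and 10.1 ± 2.86 in young control livers (SD, n = 4 each). Whether reads of the human plasmid transcript were counted there was not tested.

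Per length, the most abundant transcript over the 16 libraries was P4hb, the archetypal protein disulfide isomerase, with a mean of 278 RPKM. Calr (135 RPKM), Herpud1 (132), Hsp90b1 (117), Pdia3 (99.9) and Hspa5 (86.0) came next, followed by a long tail with a median over the 50 genes of 14.9 RPKM. The lowest were the signalling components Eif2ak3, at 1.73 RPKM, and Mbtps2, at 0.785. By role, the mean level ran from 0.785 to 44.1 RPKM among the 7 sensors and transducers and from 4.79 to 117 among the 8 Hsp70, Hsp90 and J-domain chaperones. It spanned 2.40 to 278 RPKM among the 9 disulfide isomerases and relatives, 3.95 to 135 among the 3 genes of the lectin cycle, 6.00 to 40.0 among the 12 translocon and signal peptidase genes and 2.18 to 132 among the 11 ERAD genes. The ratio of the highest to the lowest library was 1.29 for Os9, an ERAD lectin, and 7.01 for Derl3, a membrane protein of ERAD, with a median over the 50 genes of 1.90.

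**Figure D1:**
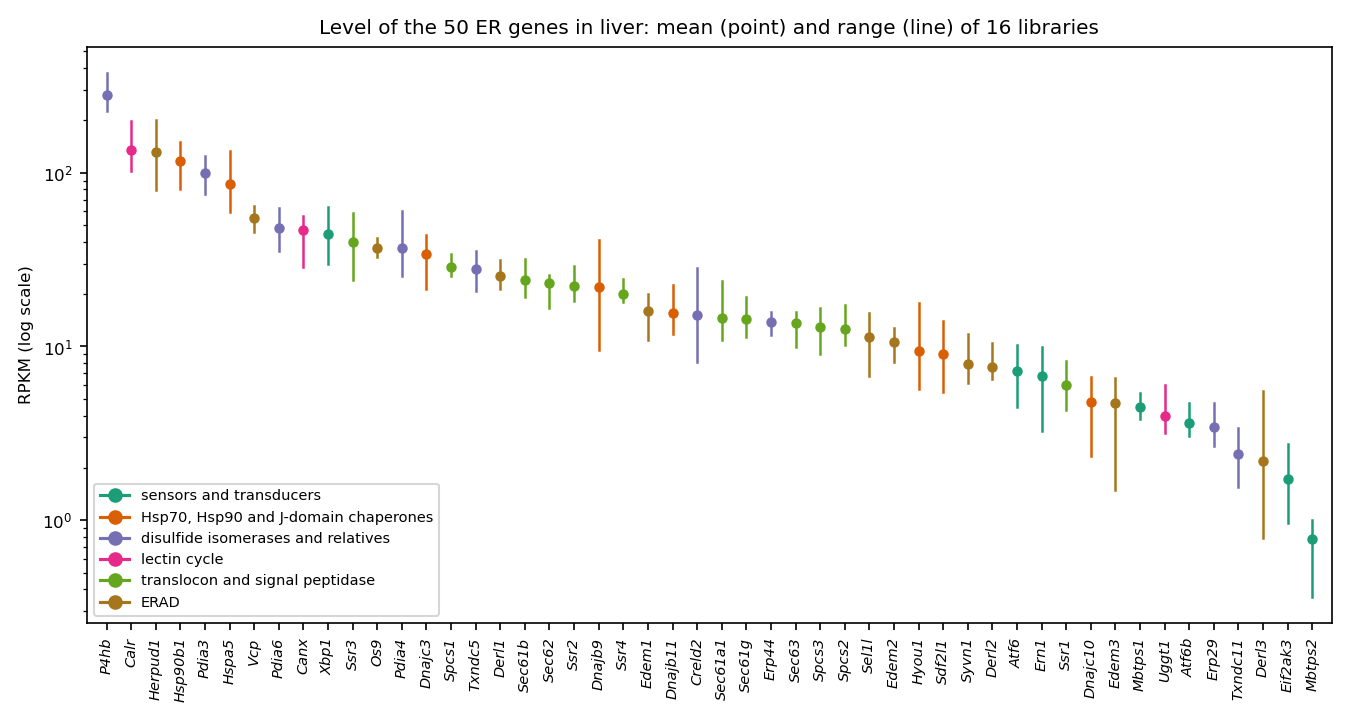
Level of each of the 50 ER genes, in RPKM on a log axis, as the mean (point) and the lowest to highest value (line) of all 16 libraries, coloured by role. Means run from 278 RPKM for P4hb to 0.785 RPKM for Mbtps2, and the lines of Dnajb9, Edem3 and Derl3 are the longest.

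In old mice the ER genes stood higher with the MANF plasmid than with the empty plasmid, by modest amounts and without a gene that passed the adjusted threshold. The log2 difference, MANF minus control on log2(RPKM + 0.5), was above 0 for 43 of the 50 genes, against 59.1% of all 10677 tested genes. Its median was 0.24, against 0.03 for all tested genes. Hyou1, Pdia4, Hspa5 and Sdf2l1 had the largest differences, 0.69, 0.65, 0.64 and 0.61, while Herpud1 had the lowest, -0.27. Of the 50 genes 0 were called at a Benjamini-Hochberg (BH) adjusted limma p below 0.05, against 0.103% of all tested genes in either direction. At an unadjusted limma p below 0.05, 19 of the 50 were higher (38%, against 6.47% of all tested genes) and 0 were lower (against 3.23%). The counts of 0 called and 19 higher were also given by the count-based fit, voom on whole reads recovered from the RPKM values. In 8 of the 50 (16%) every old MANF liver lay above every old control liver, against 3.5% of all tested genes, and in 0 was every old MANF liver below, against 1.84%. The 8 were Spcs2, Sec61a1, Dnajb11, Pdia4, Hspa5, Ssr2, Hsp90b1 and Syvn1. The exact 2-sided permutation p of such a gene is 0.0286, the smallest that 4 against 4 can give.

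The size of these counts depended on single libraries. Without old control replicate 4, Calr, Spcs2, Edem2 and Sdf2l1 passed the adjusted limma threshold, and without it and young MANF replicate 3 together 8 did, namely these 4 with Pdia3, Pdia4, Pdia6 and Dnajb11. Over all 10677 tested genes these 2 fits called 146 and 362 genes, against 11 with every library, so calls grew among all genes as well. With libraries scaled to a common median, or quantile normalized, Spcs2 alone of the 50 passed, among 11 and 17 genes in all. The number higher at an unadjusted p below 0.05 was 11 without old MANF replicate 3, 11 without old control replicate 1 and 12 without old control replicate 3. It was 24 without old MANF replicate 4 and 23 without old control replicate 4. The share of all tested genes at that p was not taken with these libraries left out. The median of the 50 genes stayed between 0.17 and 0.29 over the 8 fits that each left out 1 of these libraries. Across libraries, 46 of the 50 genes were above their 16-library median in old MANF replicate 3, 44 in replicate 1, 39 in replicate 2 and 25 in replicate 4. The corresponding numbers were 13, 7, 14 and 38 in old control replicates 1 to 4. The median deviation of the 50 from the 16-library mean was also taken less that of all tested genes. It was 0.08, -0.02, 0.28 and -0.06 in old MANF replicates 1 to 4. In old control replicates 1 to 4 it was -0.06, -0.12, -0.16 and -0.05. The 50 genes share these livers, so counts over genes are not independent observations. In all, 37 of the 50 had their highest value of all 16 libraries in an old MANF liver, 24 of them in replicate 3. Of the stellate cell markers, all 8 had a log2 difference above 0, 4 at an unadjusted limma p below 0.05, and they summed to 117 to 136 RPKM in old MANF livers and 74.5 to 114 in old control livers. Plasma and B cell markers, whose cells also hold much ER, summed to 46.8 to 56.2 RPKM in old MANF livers and 34.0 to 66.5 in old control livers, and acinar cell markers to 6.82 to 19.1 in old MANF and 6.45 to 15.0 in old control livers, with Amy2a5, Cpb1, Try4 and Try5 listed at 0 in all 16. Kupffer cell and macrophage markers summed to 209 to 403 RPKM in old MANF and 167 to 1116 in old control livers, T and NK cell markers to 3.38 to 5.07 and 3.64 to 13.7, and sinusoidal endothelium markers to 24.1 to 57.4 and 36.0 to 50.5. Their part in the result was not tested. In whole tissue, more RNA per cell and more cells of a type cannot be told apart.

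**Figure D2:**
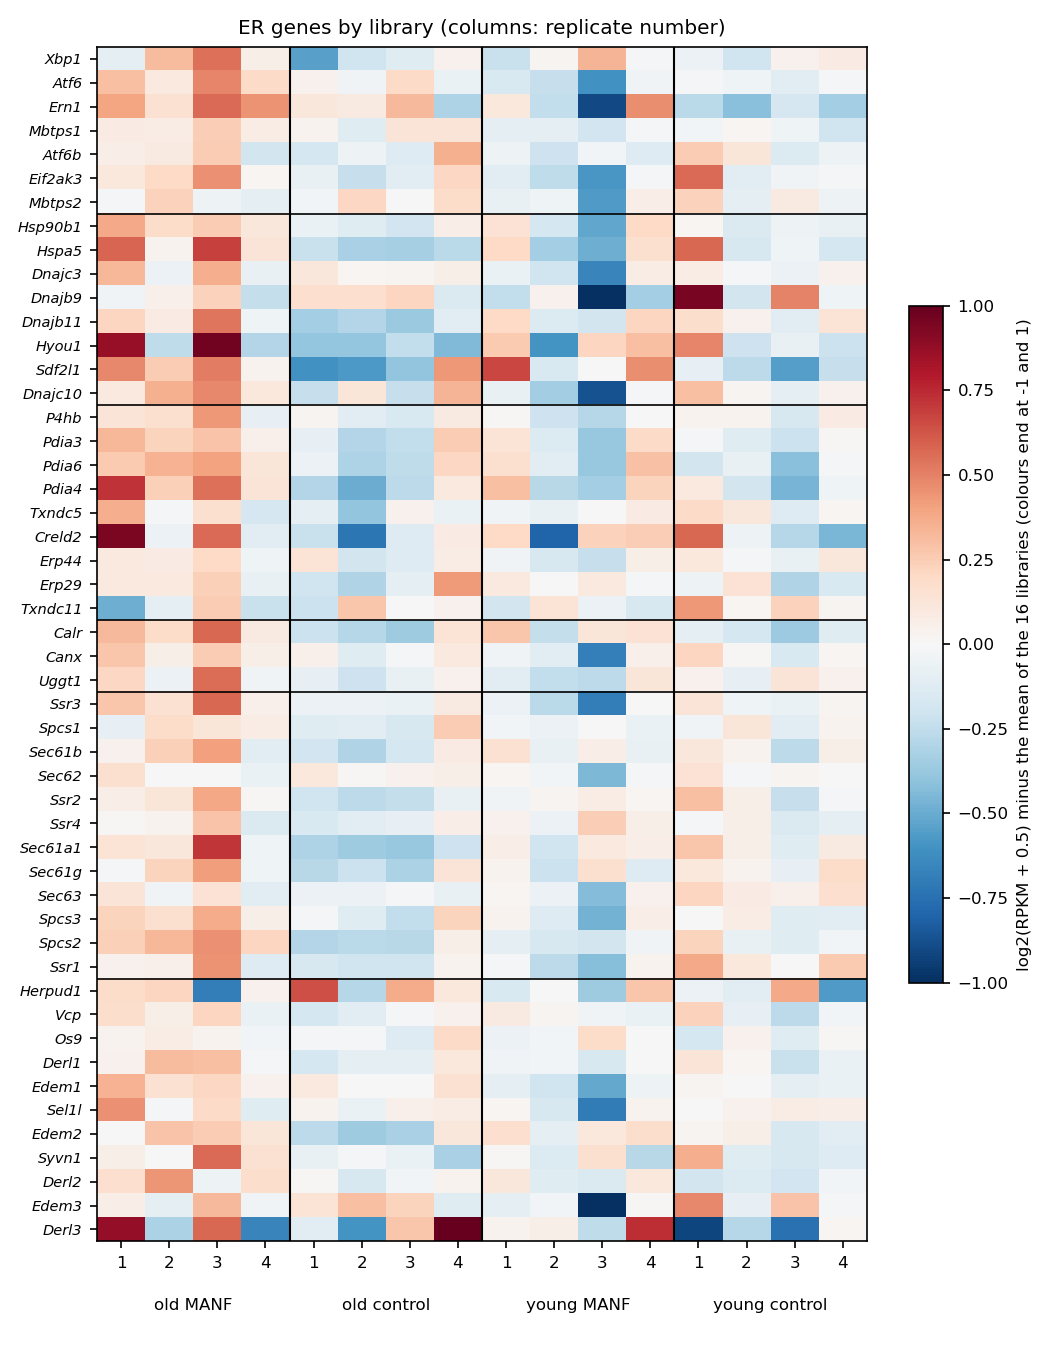
Each of the 50 ER genes (rows, grouped by role in the order of the text) in each of the 16 libraries (columns, by group and replicate number), as log2(RPKM + 0.5) minus the gene's mean over all libraries, with colours ending at -1 and 1. Old MANF replicate 3 holds the highest value of 24 genes and young MANF replicate 3 the lowest of 22.

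Among the sensors and transducers, 6 of 7 had a log2 difference above 0 in old mice and 1, Xbp1, an unadjusted limma p below 0.05. Xbp1, the transcription factor made from mRNA that IRE1α splices, was the most abundant of them. It stood at 40.6, 54.3, 63.8 and 45.2 RPKM in old MANF livers and 29.6, 37.9, 39.9 and 44.7 RPKM in old control livers. Young MANF livers had 37.2, 44.4, 55.3 and 42.8 RPKM of Xbp1 and young control livers 41.8, 37.7, 44.9 and 46.2. Old control replicate 4 reached into the old MANF range and the young groups overlapped throughout. The difference was 0.41 ± 0.15 in old mice (SE, limma BH-adjusted p = 0.363) and 0.06 ± 0.15 in young mice (limma BH-adjusted p = 0.850). These are sums over spliced and unspliced Xbp1 mRNA, which a gene-level value does not separate.

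The sensors themselves were scarcer. Ern1, the kinase and endonuclease IRE1α, had 8.73, 7.28, 9.87 and 9.05 RPKM in old MANF livers and 7.09, 6.96, 8.28 and 5.17 RPKM in old control livers. In young MANF livers Ern1 was at 7.02, 5.40, 3.25 and 9.16 RPKM, against 5.31, 4.74, 5.74 and 5.05 RPKM in young control livers. The old groups overlapped through old control replicate 3, and the young MANF livers held both the lowest value of all 16 and the second highest, which the young control livers did not approach. The difference was 0.33 ± 0.22 in old mice (limma BH-adjusted p = 0.723) and 0.15 ± 0.22 in young mice (limma BH-adjusted p = 0.731). Eif2ak3, the kinase PERK, which slows translation by phosphorylating eIF2α, had 1.86, 2.01, 2.50 and 1.71 RPKM in old MANF livers and 1.58, 1.37, 1.53 and 2.02 in old control livers. Its values were 1.53, 1.33, 0.960 and 1.67 RPKM in young MANF livers and 2.74, 1.52, 1.63 and 1.67 in young control livers. Young control replicate 1 stood far above the other 3 of its group, and the groups overlapped at both ages. The difference was 0.25 ± 0.16 in old mice (limma BH-adjusted p = 0.727) and -0.34 ± 0.16 in young mice (limma BH-adjusted p = 0.341).

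Atf6, a membrane-bound transcription factor that is released by cleavage in the Golgi, had 8.87, 7.61, 10.2 and 8.19 RPKM in old MANF livers and 7.31, 6.92, 8.16 and 6.76 in old control livers. Young MANF livers held 6.33, 5.96, 4.49 and 6.92 RPKM of Atf6 and young control livers 7.02, 6.87, 6.56 and 6.99. Every old MANF liver exceeded every young MANF liver, whereas MANF and control livers overlapped at each age. The MANF difference was 0.24 ± 0.12 in old mice (limma BH-adjusted p = 0.531) and -0.21 ± 0.12 in young mice (limma BH-adjusted p = 0.385). Mbtps1 and Mbtps2 encode the proteases that cleave Atf6. Mbtps2, the lowest of the 50 genes, had 0.763, 0.997, 0.730 and 0.695 RPKM in old MANF livers and 0.751, 0.973, 0.776 and 0.947 in old control livers. It had 0.709, 0.740, 0.363 and 0.834 RPKM in young MANF livers and 0.997, 0.696, 0.856 and 0.733 in young control livers. These ranges overlapped, and the difference in old mice was -0.07 for Mbtps2, 0.07 for Mbtps1 and 0.06 for Atf6b, a relative of Atf6.

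The Hsp70, Hsp90 and J-domain chaperones had the highest median of the 6 role groups in old mice, 0.39, with 7 of 8 above 0 and 5 at an unadjusted limma p below 0.05. Hspa5, which encodes BiP, the Hsp70 chaperone that also holds the sensors inactive, stood at 125, 85.7, 134 and 91.2 RPKM in old MANF livers and at 71.4, 66.4, 66.2 and 69.0 RPKM in old control livers. In young mice it stood at 95.7, 65.6, 59.2 and 93.4 RPKM with the MANF plasmid and at 124, 74.6, 80.8 and 73.9 RPKM with the empty plasmid. Old control livers were closely grouped and all below the lowest old MANF liver, whereas in young mice the groups overlapped and young control replicate 1 came close to the highest old MANF livers. Hspa5 averaged 109 ± 24.1 RPKM in old MANF and 68.3 ± 2.46 in old control livers (SD, n = 4 each), a log2 difference of 0.64 ± 0.19 (95% interval 0.23 to 1.05, limma BH-adjusted p = 0.202). In young mice the difference was -0.17 ± 0.19 (limma BH-adjusted p = 0.675), and without young control replicate 1 it was 0.01.

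Hsp90b1, which encodes GRP94, the ER form of Hsp90, had 150.2, 131, 137 and 125 RPKM in old MANF livers and 110.3, 106, 101 and 121 in old control livers. Young MANF livers ran at 128, 102, 80.1 and 133 RPKM and young control livers at 117, 104, 111 and 109.7. The old groups did not overlap, though old MANF replicate 4 and old control replicate 4 were close, and young MANF livers spread to both sides of young control livers. The difference was 0.31 ± 0.13 in old mice (limma BH-adjusted p = 0.438) and -0.03 ± 0.13 in young mice (limma BH-adjusted p = 0.929), a sign that turned to 0.11 with libraries scaled to a common median. Hyou1, the nucleotide exchange factor GRP170 that resets BiP, had 16.7, 7.40, 17.9 and 7.18 RPKM in old MANF livers and 6.72, 6.70, 7.43 and 6.44 in old control livers. It had 10.8, 5.72, 10.4 and 11.1 RPKM in young MANF livers and 12.7, 7.64, 8.46 and 7.63 in young control livers. Old MANF replicates 1 and 3 were higher than any other library, while replicates 2 and 4 lay at the level of the old control livers. The difference was 0.69 ± 0.28 in old mice (limma BH-adjusted p = 0.405), and in young mice it was 0.04 ± 0.28 (limma BH-adjusted p = 0.945).

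Dnajb11, the J-domain protein ERdj3 that hands unfolded proteins to BiP, had 18.0, 16.3, 22.6 and 14.9 RPKM in old MANF livers and 12.1, 12.5, 11.9 and 14.2 RPKM in old control livers. In young mice Dnajb11 was at 17.7, 14.0, 13.5 and 18.0 RPKM with MANF and at 17.5, 15.9, 14.3 and 17.0 RPKM without. All old MANF livers exceeded all old control livers, and all old control livers lay below all young control livers. The difference was 0.47 ± 0.13 in old mice (limma BH-adjusted p = 0.151) and -0.04 ± 0.13 in young mice (limma BH-adjusted p = 0.894). Sdf2l1, which forms a complex with ERdj3, had 12.3, 10.4, 12.5 and 8.86 RPKM in old MANF livers and 5.50, 5.63, 6.44 and 11.9 in old control livers. Young MANF livers had 14.0, 7.71, 8.58 and 12.1 RPKM of Sdf2l1 and young control livers 8.10, 7.13, 5.74 and 7.27. Most MANF livers were above most control livers at either age, with old control replicate 4 in the MANF range. The difference was 0.61 ± 0.22 in old mice (limma BH-adjusted p = 0.343, 1.52-fold) and 0.52 ± 0.22 in young mice (limma BH-adjusted p = 0.313, 1.44-fold). Without old control replicate 4 it was 0.85 in old mice (limma BH-adjusted p = 0.0409).

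Dnajb9 (ERdj4), an inducible J-domain protein, had 20.5, 21.7, 24.7 and 17.7 RPKM in old MANF livers and 23.6, 23.7, 24.4 and 19.0 in old control livers. Its young MANF livers had 17.6, 21.7, 9.53 and 16.5 RPKM and its young control livers 41.0, 18.4, 29.8 and 20.3. Young MANF replicate 3 was the lowest of all 16 libraries and young control replicate 1 the highest, and the young groups still overlapped. The difference was -0.10 ± 0.24 in old mice (limma BH-adjusted p = 0.969) and -0.71 ± 0.24 in young mice (limma BH-adjusted p = 0.243). Dnajc10 (ERdj5), a disulfide reductase, was the lowest of the group, with 5.04, 6.13, 6.71 and 5.06 RPKM in old MANF livers and 3.91, 5.14, 3.91 and 6.04 in old control livers. It was at 4.40, 3.56, 2.33 and 4.61 RPKM in young MANF livers and at 5.86, 4.77, 4.33 and 4.82 RPKM in young control livers. MANF and control livers overlapped at both ages. The differences were 0.26 in old and -0.39 in young mice for Dnajc10, and 0.08 and -0.22 for Dnajc3, the J-domain protein p58IPK.

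**Figure D3:**
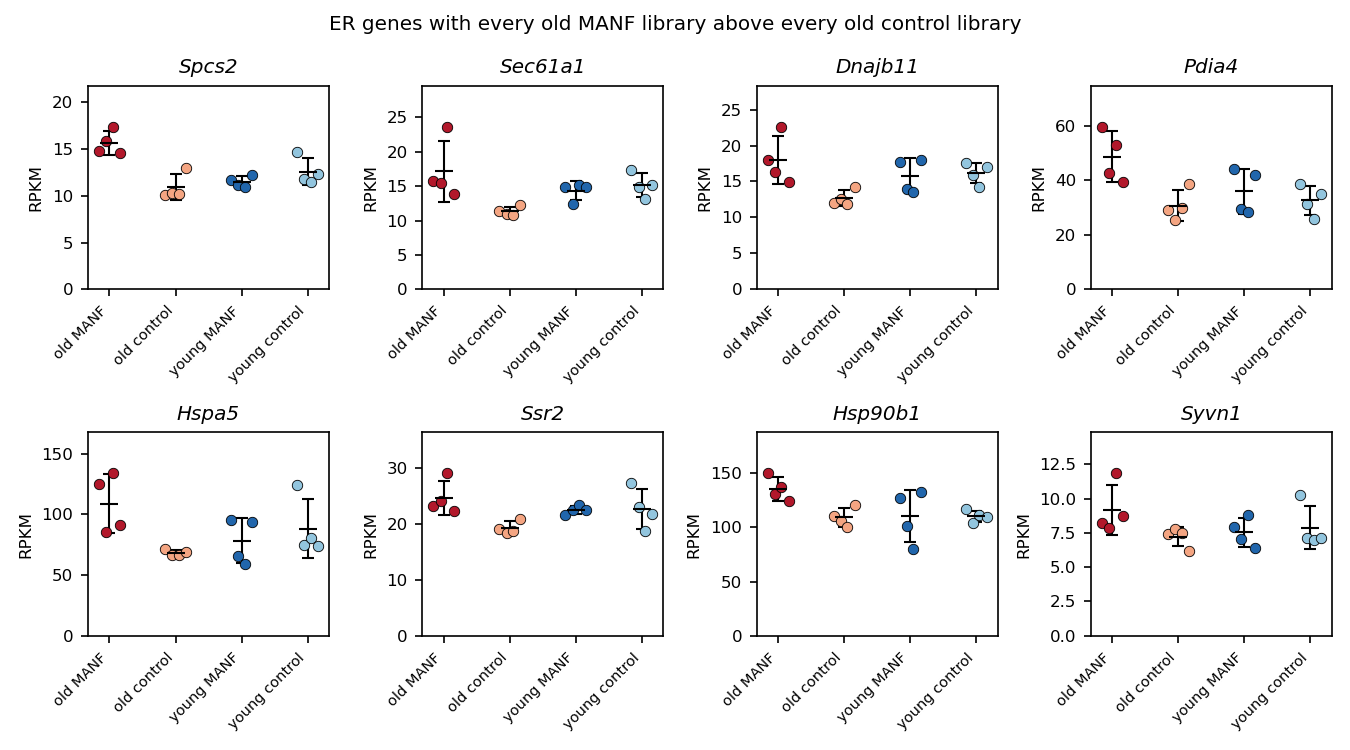
RPKM per library (points), group mean (long line) and SD (error bar, n = 4) of the 8 ER genes in which every old MANF liver lay above every old control liver. The lowest old MANF and highest old control values of Spcs2 are 14.6 and 13.0 RPKM, and in young mice the groups of all 8 genes overlap.

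Of the 9 disulfide isomerases and relatives, 8 had a difference above 0 in old mice, with a median of 0.21 and 3 (Pdia3, Pdia4 and Pdia6) at an unadjusted limma p below 0.05. P4hb had 302, 308, 373 and 261 RPKM in old MANF livers and 281, 257, 249 and 293 in old control livers. Young MANF livers had 278, 239, 226 and 275 RPKM of P4hb and young control livers 283, 283, 248 and 293. Old MANF replicate 3 was the highest and the ranges overlapped at both ages, with log2 differences of 0.20 in old and -0.12 in young mice. Pdia4 (ERp72), an isomerase of several thioredoxin domains, did not overlap in old mice, at 59.8, 42.6, 52.9 and 39.4 RPKM in MANF livers and 29.3, 25.3, 29.9 and 38.5 in control livers. In young mice it was at 44.3, 29.7, 28.2 and 42.0 RPKM with MANF and at 38.6, 31.5, 26.0 and 35.0 RPKM without. The lowest old MANF and highest old control liver, each replicate 4, were nearly equal, and the difference was 0.65 ± 0.18 in old mice (limma BH-adjusted p = 0.157).

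Creld2, a stress-induced ER protein, had 28.2, 13.9, 21.7 and 13.4 RPKM in old MANF livers and 12.4, 8.58, 13.2 and 15.4 RPKM in old control livers. Values in young MANF livers were 16.7, 8.10, 17.0 and 17.3 RPKM and in young control livers 21.8, 13.9, 11.8 and 10.4 RPKM. As for Hyou1, old MANF replicates 1 and 3 were high and young MANF replicate 2 the lowest of its group. The difference was 0.58 ± 0.29 in old mice (limma BH-adjusted p = 0.546) and 0.02 ± 0.29 in young mice (limma BH-adjusted p = 0.970). Txndc11, the least abundant of the group, had 1.55, 2.19, 2.92 and 1.96 RPKM in old MANF livers and 1.97, 2.97, 2.35 and 2.45 in old control livers. It had 2.02, 2.64, 2.25 and 2.07 RPKM in young MANF livers and 3.37, 2.40, 2.86 and 2.42 in young control livers. Its groups overlapped and its differences were -0.16 in old and -0.24 in young mice.

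The lectin cycle holds glycoproteins in the ER until they fold, through the lectins calreticulin (Calr) and calnexin (Canx) and the folding sensor Uggt1, which marks misfolded glycoproteins for another round. All 3 had a difference above 0 in old mice. Calr had 166, 150.1, 197 and 140.5 RPKM in old MANF livers and 114, 108, 103 and 146 in old control livers. In young MANF livers it had 160.1, 112, 144 and 146 RPKM and in young control livers 124, 117, 103 and 122. Old control replicate 4 passed the lowest old MANF liver, and young MANF replicate 2 lay within the young control range. The difference was 0.47 ± 0.14 in old mice (limma BH-adjusted p = 0.182) and 0.26 ± 0.14 in young mice (limma BH-adjusted p = 0.365). Uggt1 had 4.58, 3.75, 5.99 and 3.81 RPKM in old MANF livers and 3.67, 3.33, 3.69 and 4.06 in old control livers. Young MANF livers were at 3.57, 3.22, 3.18 and 4.31 RPKM and young control livers at 4.05, 3.68, 4.32 and 4.06. Its ranges overlapped at both ages. The differences were 0.25 in old and -0.16 in young mice for Uggt1, and 0.16 and -0.22 for Canx.

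The translocon imports nascent chains and signal peptidase trims them. In old mice 11 of these 12 genes had a difference above 0, with a median of 0.27, and 5 had an unadjusted limma p below 0.05, including all 3 subunits of the Sec61 channel. Spcs2, a subunit of signal peptidase, had the smallest p of the 50 genes. It had 14.8, 15.9, 17.4 and 14.6 RPKM in old MANF livers and 10.1, 10.3, 10.2 and 13.0 RPKM in old control livers. Young MANF livers had 11.7, 11.2, 11.0 and 12.2 RPKM of Spcs2 and young control livers 14.7, 11.8, 11.5 and 12.3. The old groups were separate, and young MANF livers also lay below every old MANF liver, while the young groups overlapped. Spcs2 averaged 15.7 ± 1.28 RPKM in old MANF and 10.9 ± 1.40 in old control livers (SD, n = 4 each), 1.42-fold on the log2(RPKM + 0.5) scale, with a difference of 0.51 ± 0.10 (95% interval 0.29 to 0.72, limma BH-adjusted p = 0.0662). Without old control replicate 4 the adjusted limma p was 0.0170, and over all 8 fits that each left out a library it ran from 0.0170 to 0.205. Spcs1 and Spcs3, also subunits of signal peptidase, had differences of 0.11 and 0.25 with overlapping groups.

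Sec61a1, the pore-forming subunit of the Sec61 channel, had 15.7, 15.4, 23.7 and 13.8 RPKM in old MANF livers and 11.4, 11.0, 10.8 and 12.2 RPKM in old control livers. It was at 14.9, 12.3, 15.2 and 14.9 RPKM in young MANF livers and at 17.3, 14.9, 13.1 and 15.2 RPKM in young control livers. Every old control liver lay below every other library, though young MANF replicate 2 was just above the highest of them. The MANF difference was 0.54 ± 0.14 in old mice (limma BH-adjusted p = 0.143) and -0.07 ± 0.14 in young mice. Sec61b and Sec61g, the small subunits, had 0.29 and 0.31 in old mice and 0.03 and -0.10 in young mice. Sec62 and Sec63, the auxiliary proteins of post-translational import, had -0.03 and 0.09 in old mice and -0.16 and -0.24 in young mice.

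The 4 Ssr genes encode the translocon-associated protein complex. Ssr3, the most abundant, had 47.9, 43.7, 58.8 and 40.9 RPKM in old MANF livers and 37.8, 37.9, 37.6 and 41.9 in old control livers. It had 37.9, 32.6, 24.2 and 39.3 RPKM in young MANF livers and 43.1, 38.3, 37.6 and 40.2 in young control livers. The least abundant, Ssr1, had 6.12, 6.14, 8.29 and 5.39 RPKM in old MANF and 5.26, 5.09, 5.09 and 6.08 in old control livers, with 5.86, 4.85, 4.29 and 6.10 RPKM in young MANF and 7.86, 6.42, 5.94 and 7.22 in young control livers. Old control replicate 4 was the highest old control liver for both genes and overlapped with old MANF replicate 4, and young MANF replicate 3 was the lowest library of all for both. The difference of Ssr1 was 0.24 ± 0.13 in old mice (limma BH-adjusted p = 0.634) and -0.35 ± 0.13 in young mice (limma BH-adjusted p = 0.272). That of Ssr3 was 0.29 and -0.27, that of Ssr2 0.34 and -0.00, and that of Ssr4 0.12 and 0.12, old mice before young mice.

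ERAD draws misfolded proteins out of the ER for the proteasome. Here the differences in old mice were mixed, 8 of 11 above 0 with a median of 0.13 and 4 at an unadjusted limma p below 0.05, namely Edem2, Syvn1, Derl1 and Derl2. Herpud1, a stress-induced scaffold of the Hrd1 ubiquitin ligase, had 146, 149, 79.3 and 132 RPKM in old MANF livers and 200.3, 105, 166 and 138 in old control livers. It had 115, 128, 99.9 and 155 RPKM in young MANF livers and 123, 119, 167 and 86.5 in young control livers. Old MANF replicate 3, the highest library for 24 of the 50 genes, was the lowest of all 16 for Herpud1, and old control replicate 1 the highest. The difference was -0.27 ± 0.24 in old mice (limma BH-adjusted p = 0.833) and 0.03 ± 0.24 in young mice (limma BH-adjusted p = 0.960).

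Edem2, a mannosidase-like protein that marks glycoproteins for ERAD, had 10.5, 12.8, 12.6 and 11.4 RPKM in old MANF livers and 8.64, 8.09, 8.28 and 11.4 in old control livers. Young MANF livers were at 11.9, 9.75, 11.3 and 11.9 RPKM of Edem2 and young control livers at 10.7, 10.9, 9.30 and 9.63. Only old control replicate 4 entered the old MANF range. The difference was 0.37 ± 0.11 in old mice (limma BH-adjusted p = 0.196) and 0.13 in young mice. Syvn1, the ubiquitin ligase Hrd1 itself, had 8.20, 7.90, 11.9 and 8.77 RPKM in old MANF livers and 7.45, 7.77, 7.48 and 6.19 in old control livers, groups that were close but did not overlap. Its difference was 0.31 in old and -0.05 in young mice. Derl3 was scarce and scattered, with 3.98, 1.46, 3.15 and 1.05 RPKM in old MANF and 1.77, 1.11, 2.46 and 5.54 in old control livers, and with 2.01, 2.05, 1.55 and 3.57 RPKM in young MANF and 0.791, 1.51, 0.958 and 1.97 in young control livers. The remaining ERAD genes in old mice had differences of 0.23 (Derl1), 0.22 (Derl2), 0.16 (Vcp, the ATPase that pulls substrates out), 0.13 (Edem1), 0.10 (Sel1l, the partner of Hrd1), 0.02 (Os9) and -0.07 (Edem3).

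**Figure D4:**
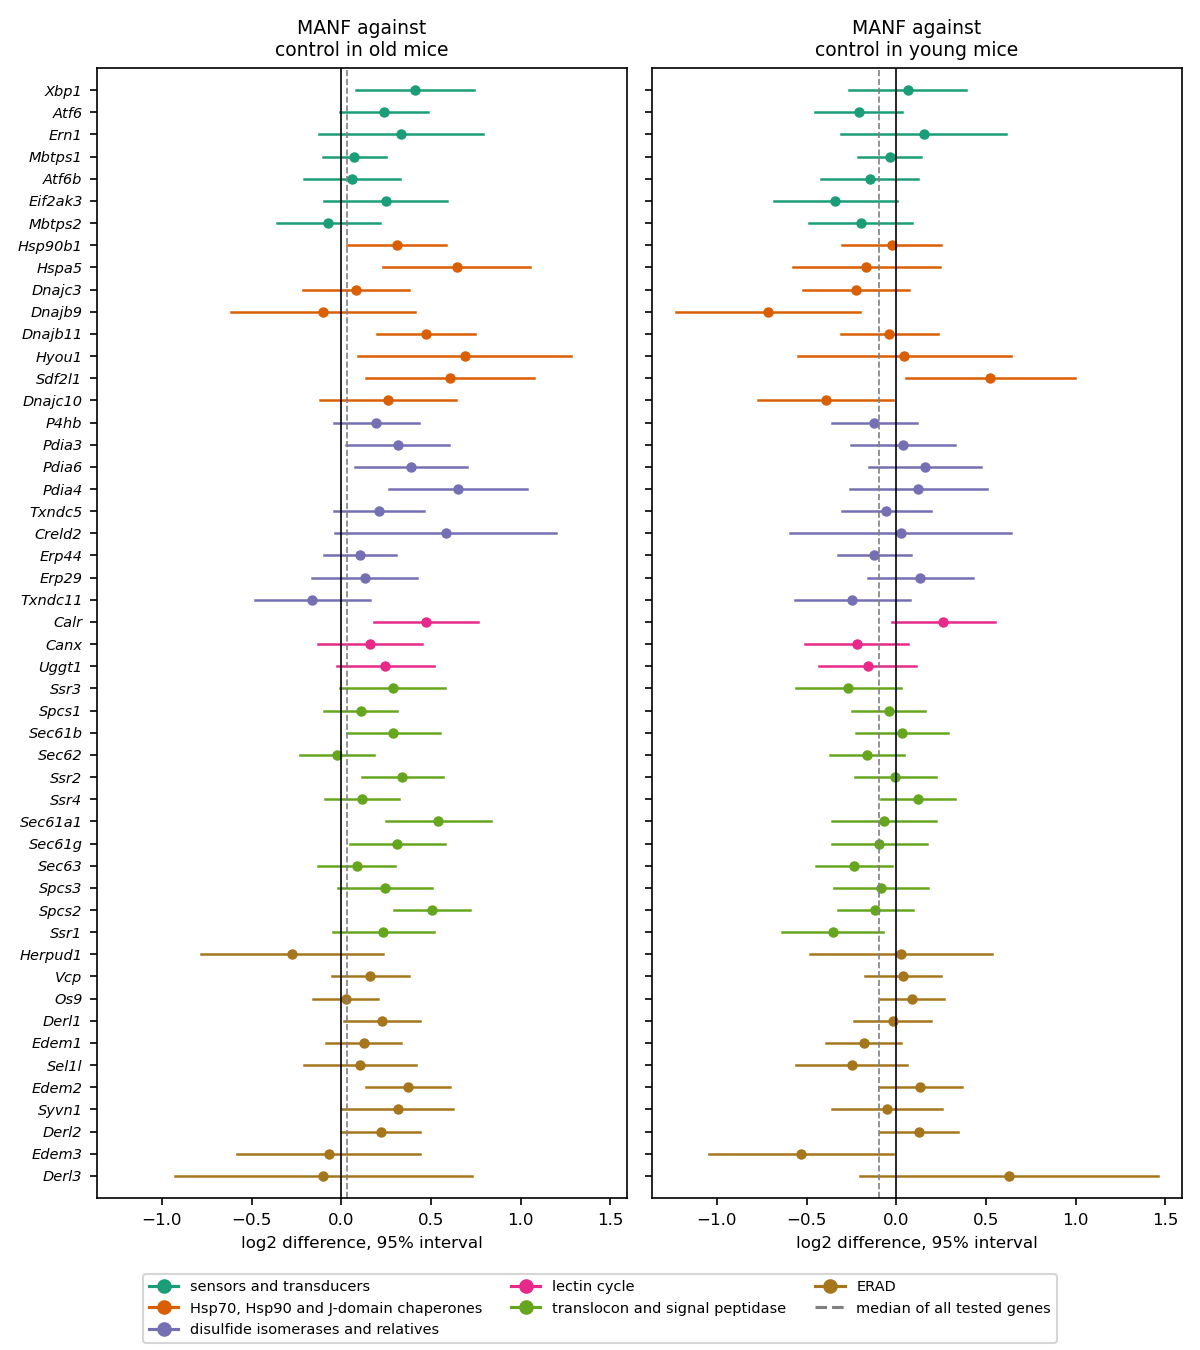
Log2 difference with its 95% interval (limma) for each of the 50 ER genes, grouped by role and ordered by mean level within a role, MANF against control in old mice (left) and in young mice (right). The dashed line is the median of all 10677 tested genes, 0.03 in old and -0.10 in young mice, and 43 of the 50 points in old mice and 18 in young mice lie above 0.

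Promoters holding the first ERSE form or ERSE-II were set beside the rest of the 43 genes with a window. The 11 genes with a site had a median difference of 0.31 in old mice, with 9 above 0, 6 at an unadjusted limma p below 0.05 and 4 without overlap (Hspa5, Hsp90b1, Dnajb11 and Syvn1). The 32 genes with a window and no site had a median of 0.20, with 27 above 0, 9 at an unadjusted limma p below 0.05 and 2 without overlap. Of all tested genes, 6.47% were higher at that p and 3.5% were higher without overlap. The difference between these subsets was not tested. Derl3, Dnajc3, Canx and Herpud1 hold a site and had differences of -0.10, 0.08, 0.16 and -0.27.

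In young mice the place of the ER genes depended on the scaling of the libraries, and it differed with gene length. On the values as deposited, the log2 difference, MANF minus control, was above 0 for 18 of the 50, against 32.1% of all tested genes, and its median was -0.05, against -0.10. The 25 longer ER genes had a median of -0.17 and the 25 shorter 0.02. The part of length in the result was not tested. Of the 50 genes 0 were called at an adjusted limma p below 0.05, against 0.0187% of all tested genes, and voom likewise called 0. At an unadjusted limma p below 0.05, 1 was higher (Sdf2l1, against 3.81% of all tested genes) and 5 were lower (Dnajb9, Ssr1, Sec63, Dnajc10 and Edem3, 10%, against 11.1%), shares near those of all genes. In Sec63 every young MANF liver lay below every young control liver, against 6.59% of all tested genes, and in 0 was every one above, against 2.29%. Leaving out young MANF replicate 3, or young control replicate 1, left 1 gene lower at an unadjusted p below 0.05, leaving out young MANF replicate 4 gave 11, and leaving out young control replicate 4 gave 3. Scaling the libraries to a common median put 32 of the 50 above 0 with a median of 0.08, where that of all tested genes was 0.01. With that scaling 7 were higher and 1 was lower at an unadjusted limma p below 0.05, the opposite balance. The shares of all tested genes at that p were not taken under this scaling. Whether their balance turned as well is therefore not known. Quantile normalization, which put the median of all tested genes at 0.003, kept 18 of the 50 above 0 with an ER median of -0.05. There, 1 was higher and 3 were lower at that p, so the balance of the 50 did not turn, again without the shares of all tested genes.

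Whether the MANF difference itself differed between ages was tested as an interaction. The difference in old minus that in young mice was above 0 for 45 of the 50 genes, against 71.5% of all tested genes, with a median of 0.31 against 0.12. Of the 50 genes 0 passed the adjusted limma threshold, as did 0 of all tested genes, 0%. At an unadjusted limma p below 0.05, 14 were higher (28%, against 6.71% of all tested genes) and 0 lower (against 1.67%), and voom gave 14 and 0. Spcs2 had the smallest p, with 0.62 ± 0.14 (limma BH-adjusted p = 0.406), followed by Sec61a1 with 0.61 ± 0.19 and Ssr1 with 0.59 ± 0.19 (limma BH-adjusted p = 0.594 for each). Hspa5 had the largest value, 0.81 ± 0.27, made of 0.64 in old and -0.17 in young mice. The number of 14 became 9 without old MANF replicate 3, 9 without old control replicate 1 or 2 and 9 without young control replicate 1. It became 20 without old control replicate 4 and 18 without old MANF replicate 4. Without young MANF replicate 3 it was 12 with a median of 0.22, the lowest median when 1 library was left out. With every library the median was 0.35 for the 25 longer ER genes and 0.26 for the 25 shorter. With libraries scaled to a common median the number was 8 and the median 0.15. Under quantile normalization the number was 12 and the median 0.26. Shares of all tested genes at that p were not taken in these alternatives.

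Averaged over both ages, MANF livers had a difference above 0 for 34 of the 50 genes, against 42.2% of all tested genes, and a median of 0.09, against -0.03. The median was 0.01 for the 25 longer ER genes and 0.14 for the 25 shorter. Of the 50 genes 0 passed the adjusted limma threshold, against 1.29% of all tested genes in either direction. At an unadjusted limma p below 0.05, 11 were higher (22%, against 6.17%) and 1, Dnajb9, was lower (against 7.91%), and voom gave the same 2 counts. Calr had 0.37 ± 0.10 (limma BH-adjusted p = 0.0838), Sdf2l1 0.56 ± 0.16 (limma BH-adjusted p = 0.105) and Edem2 0.25 ± 0.08 (limma BH-adjusted p = 0.142). These 3 passed the threshold without old control replicate 4, where 174 of all tested genes did, against 138 with every library, and Calr passed it without young MANF replicate 2, where 112 did. The number higher at an unadjusted limma p below 0.05, 11 with every library, was 7 without young MANF replicate 4 and 7 without young control replicate 3. It was 19 with libraries scaled to a common median, 10 under quantile normalization and 17 without old control replicate 4 and young MANF replicate 3 together. Shares of all tested genes at that p were not taken in these fits.

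Old and young livers were compared under each plasmid. The 2 age comparisons share their livers with the MANF comparisons, so the counts below are not independent of those above. With the MANF plasmid, old minus young was above 0 for 46 of the 50 ER genes, against 79% of all tested genes, and the median was 0.22, against 0.18. Atf6, Spcs2, Edem1 and Ssr3 rose at an adjusted limma p below 0.05, 4 of 50, against 5.85% of all tested genes that rose, and 0 fell, against 0.721%. At an unadjusted limma p below 0.05, 18 were higher (36%, against 30.7%) and 0 lower (against 2.75%). In 8 (16%) every old MANF liver lay above every young MANF liver, against 22.3%, and in 0 below, against 1.36%. The 18 became 8 without old MANF replicate 3, 11 without young MANF replicate 2 and 7 without young MANF replicate 3. They became 22 without old MANF replicate 4 and 22 without young MANF replicate 4. Shares of all tested genes at an unadjusted p below 0.05 were not taken in these omissions. Scaling to a common median put the ER median at -0.00 and 25 of the 50 above 0, and left 0 of the 4 called. Quantile normalization also left 0 called and put 41 of the 50 above 0, with an ER median of 0.10 against -0.03 for all tested genes. The calls over all genes turned with the scaling as well, with 625 higher and 77 lower as deposited, 142 higher and 272 lower under median scaling and 76 higher and 171 lower under quantile normalization.

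Of the 4, Atf6 averaged 8.71 ± 1.10 RPKM in old MANF and 5.93 ± 1.03 in young MANF livers, a difference of 0.53 ± 0.12 (limma BH-adjusted p = 0.0224). Spcs2 had 0.43 ± 0.10 (limma BH-adjusted p = 0.0261). Edem1, a mannosidase-like protein of ERAD, had 20.2, 17.6, 18.3 and 16.3 RPKM in old MANF livers and 14.7, 13.7, 10.9 and 15.2 in young MANF livers, a difference of 0.40 ± 0.10 (limma BH-adjusted p = 0.0312). Ssr3 had 0.52 ± 0.14 (limma BH-adjusted p = 0.0392). Young MANF replicate 3 was the lowest of its group in all 4 genes, and without it Atf6 alone was called. Each of the omissions of old MANF replicate 2, of young MANF replicate 1 and of replicate 2 in the same young group likewise gave 1 call. The number was 2 without old MANF replicate 1, 0 without old MANF replicate 3 and 6 without young MANF replicate 4. Over all 10677 tested genes these last 3 fits called 261, 350 and 1125 genes, against 702 with every library. Of the markers of other cells, stellate cell markers summed to 117 to 136 RPKM in old MANF and 62.4 to 73.6 in young MANF livers, with 4 of 8 called higher, and Kupffer cell and macrophage markers to 209 to 403 and 51.1 to 166, with 11 of 11 above 0. T and NK cell markers summed to 3.38 to 5.07 RPKM in old MANF and 0.772 to 1.18 in young MANF livers, with 3 of 5 called higher. Their part in the result was not tested.

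With the empty plasmid fewer of the ER genes were above 0 than of all genes. Old minus young was above 0 for 14 of the 50, against 62.1% of all tested genes, and the median was -0.04, against 0.05. Of the 50 genes 0 passed the adjusted limma threshold, against 1.25% of all tested genes. At an unadjusted limma p below 0.05, 0 were higher (against 11.3%) and 3 were lower (6%, against 3.57%), the same counts as with voom. In 5 genes (Sec61a1, Dnajb11, Sec63, Hspa5 and Hyou1) every old control liver lay below every young control liver, against 2.34% of all tested genes, and in 0 above, against 8.13%. The 3 lower genes were Sec61a1, with -0.39 ± 0.14 (limma BH-adjusted p = 0.187), Dnajb11, with -0.34 ± 0.13 (limma BH-adjusted p = 0.222), and Ssr1, with -0.32 ± 0.13 (limma BH-adjusted p = 0.265). Hspa5 averaged 68.3 ± 2.46 RPKM in old control and 88.4 ± 24.1 in young control livers, a difference of -0.34 ± 0.19 (limma BH-adjusted p = 0.460). The count of 3 was 7 without old control replicate 4, 5 without young control replicate 3 and 10 with libraries scaled to a common median. Shares of all tested genes at that unadjusted p were not taken in these fits. The scaling put the median of all tested genes at -0.02. Their calls at an adjusted limma p went from 96 higher and 37 lower to 57 higher and 61 lower. Without young control replicate 1 the number of the 50 above 0 was 29. Sinusoidal endothelium markers summed to 36.0 to 50.5 RPKM in old control and 17.5 to 24.1 in young control livers, with 4 of 8 called higher. In the same order, Kupffer cell and macrophage markers summed to 167 to 1116 and 89.0 to 219 RPKM. T and NK cell markers summed to 3.64 to 13.7 and 0.918 to 4.32, and stellate cell markers to 74.5 to 114 and 65.6 to 112. Plasma and B cell markers summed to 34.0 to 66.5 and 31.1 to 60.6, and acinar cell markers to 6.45 to 15.0 and 5.86 to 10.9. The part of these cells in the result was not tested.

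**Figure D5:**
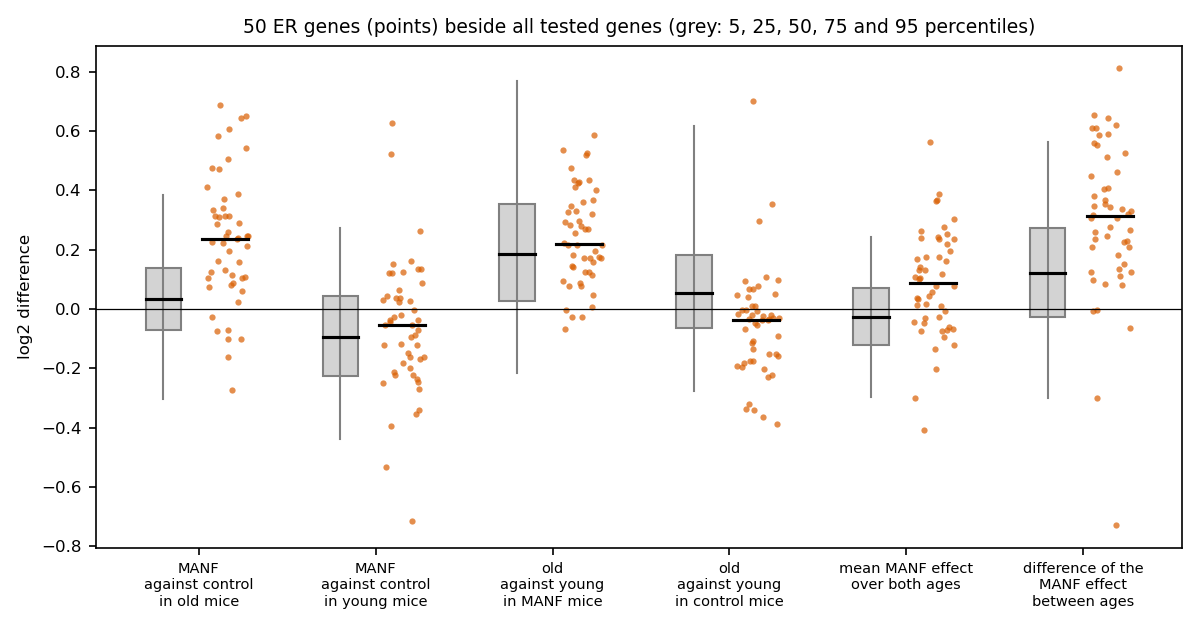
Log2 difference of the 50 ER genes (points, with their median as a line) beside all 10677 tested genes (grey box from the 25th to the 75th percentile, line at the median, whiskers to the 5th and 95th) in each of the 6 comparisons. The ER median lies above that of all genes for MANF in old mice (0.24 against 0.03) and close to it for age in MANF mice (0.22 against 0.18).

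A further list of ER genes was tested in the same fits, made of 105 names of N-glycosylation, oxidation, co-chaperone, targeting, export, ERAD and PERK-branch genes, of which 104 were in the table and 100 were tested. In old mice 78 of the 100 had a MANF difference above 0, against 59.1% of all tested genes, with a median of 0.10, against 0.03. Of the 100, 16 were higher at an unadjusted limma p below 0.05, against 6.47%, and 0 were called, against 0.103%. The 3 smallest p were those of Tmem258, a subunit of oligosaccharyltransferase (0.43 ± 0.11, limma BH-adjusted p = 0.144), Tram1, a translocon partner (0.39 ± 0.11), and Fkbp11, a prolyl isomerase (0.79 ± 0.22). By class, 18 of the 21 N-glycosylation and oligosaccharyltransferase genes were above 0, with 7 at an unadjusted limma p below 0.05, and 0 of the 9 export genes of the COPII coat reached that threshold. In young mice 28 of the 100 were above 0, against 32.1% of all tested genes. There, 4 were higher at an unadjusted limma p below 0.05, against 3.81%, and 19 lower, against 11.1%, and 0 were called, against 0.0187%.

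Trib3, a pseudokinase induced through ATF4 and CHOP in the PERK branch, was the 1 gene of the 50 and the 100 called in the average MANF comparison, in which 1.29% of all tested genes were called. It had 2.05, 4.05, 5.91 and 2.08 RPKM in old MANF livers and 1.05, 1.24, 1.61 and 2.06 RPKM in old control livers. Young MANF livers had 2.85, 2.56, 4.18 and 2.36 RPKM of Trib3 and young control livers 1.14, 1.10, 1.77 and 1.22. All young MANF livers exceeded all young control livers, and old control replicate 4 just entered the old MANF range. The difference was 0.93 ± 0.26 in old mice, 0.94 ± 0.26 in young mice and 0.93 ± 0.19 over both (limma BH-adjusted p = 0.0226). The number of these 100 genes called in that comparison was 0 without old control replicate 1 or 2, young MANF replicate 1 or young control replicate 1, so Trib3 was not called there, and it was 2 without young MANF replicate 3 and 5 without old control replicate 4. With age under the MANF plasmid, Ddit3, which encodes CHOP, rose by 0.71 ± 0.16 (limma BH-adjusted p = 0.0251), Crebrf by 0.69 ± 0.18 (limma BH-adjusted p = 0.0348) and Tmx3, a membrane-bound disulfide isomerase, by 0.69 ± 0.18 (limma BH-adjusted p = 0.0387). These are 3 of 100 genes, a smaller share than the 5.85% of all tested genes that rose. With age under the empty plasmid 0 of the 100 were called, and Fkbp11 had the smallest p, with -0.87 ± 0.22 (limma BH-adjusted p = 0.0690).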

How the data were processed

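Messenger RNA of 16 mouse livers was sequenced from Trizol extracts with a stranded TruSeq kit, per the labels. Per the submitters' processing notes, the build was mm10 and the tools were HTSeq and STAR 2.4.2a. The annotation and the strand setting of the counting are not given in the sources used here, so reads of the 19 of the 50 genes whose exons overlap another gene may be shared. The authors deposited RPKM values for 24010 entries, of which 6664 were 0 in every library. Entries with 24 symbols turned into date numbers could not be named. Of the values above 0, 99.9933% were whole multiples of the value of 1 read, within 0.001, and were taken as read counts. The gene length was searched to make each entry's values whole, so entries with few values above 0 can pass by chance. The largest distance from a whole read was 5.21e-06 among the 50 genes and 0.00099998 over all entries.

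Here log2(RPKM + 0.5) was fitted for the 10677 genes that reached 0.5 RPKM in 4 or more of the 16 libraries, by limma 3.58.1 in R 4.3.3, with a mean per group, a variance trend and 12 residual degrees of freedom. The Benjamini-Hochberg adjustment ran over all tested genes, with a call at an adjusted p below 0.05. The script was tested on simulated data. Fold changes on this scale understate those of low genes. Alternatives were median scaling, quantile normalization, other pseudocounts and filters, voom on the recovered counts, a replicate block, the compared groups alone, and leaving out libraries. Labels do not say more than that the samples are separate, so p-values measure the spread between these samples, and same-numbered libraries did not deviate together (correlations from -0.32 to 0.21).

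The 50 genes and all lists were chosen with earlier results of these data known. Genes called in a comparison were named, otherwise the 3 with the smallest p, with 11 stress genes always named for MANF, and the highest and lowest gene of each role given per library. Genes named beyond that rule were chosen after their values were seen.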

Additional observations from a re-analysis of the deposited data

Results flagged for a closer look

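In 12 of 76 groups tested, over 19 genes and 4 groups each, the library at 1 end stood apart from the other 3 by more than Dixon's 95% limit for 4 values. Chance alone flags about 1 group in 20. The genes share the same livers, so a single liver can flag several, and the 12 are not independent. Old control replicate 4 was apart in 6 of the 12. It had 13.0 RPKM of Spcs2 against 10.1 to 10.3 in the other old control livers, and 11.9 RPKM of Sdf2l1 against 5.50 to 6.44. Its Edem2 value was 11.4 RPKM against 8.09 to 8.64, its Ssr1 value 6.08 against 5.09 to 5.26 and its Ssr3 value 41.9 against 37.6 to 37.9. Dnajb9 was the gene in which it was low, at 19.0 RPKM against 23.6 to 24.4.

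Young control replicate 1 was apart for Hspa5, at 124 RPKM against 73.9 to 80.8 in the other young control livers. It had 12.7 RPKM of Hyou1 against 7.63 to 8.46, and 2.74 RPKM of Eif2ak3 against 1.52 to 1.67. Young MANF replicate 2 was the low library for 3 genes, with 12.3 RPKM of Sec61a1 against 14.9 to 15.2 in the other young MANF livers, 8.10 RPKM of Creld2 against 16.7 to 17.3, and 5.72 RPKM of Hyou1 against 10.4 to 11.1.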

How the results depend on the processing

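The median MANF difference of the 50 genes in old mice was above 0 under every alternative run, and their count called in young mice was 0 under each. With libraries scaled to a common median, the genes called were 1 in old mice for MANF, 0 for age in MANF mice and 4 for the mean effect. Of all 10677 tested genes that scaling called 11, 414 and 120 in the same order, against 11, 702 and 138 as deposited. The medians of the 50 genes were then 0.076 in young mice, -0.0016 for age in MANF mice and 0.15 for the difference between ages. Quantile normalization gave 1 for MANF in old mice and 0 for age in MANF mice, where 17 and 247 of all tested genes were called. Fitting the compared groups alone gave 2 for age in MANF mice, where 1072 of all tested genes were called. Without old control replicate 4 and young MANF replicate 3 together, 8 were called in old mice and 4 for the mean effect. Over all tested genes that omission called 362 in old mice, 209 for the mean effect and 229 for age in control mice. Of the 100 other ER genes, it called 11 in old mice, 3 for age in control mice and 6 for the mean effect. For age in MANF mice the other ER genes called were 1 under median scaling, 0 under quantile normalization, 6 with a pseudocount of 0.1 and 1 with no filter. Over all tested genes these fits called 414, 247, 871 and 578. For age in control mice the other ER genes called were 3 under median scaling and 3 under quantile normalization, and for the mean effect 0 with no filter. Over all tested genes these were 118, 149 and 86. With no filter 17346 genes were tested. In young mice uncalled MANF differences turned sign, Hsp90b1 to 0.11 under median scaling and 0.12 without both libraries, where Xbp1 had -0.040, Creld2 -0.063 and Hyou1 -0.012, and Herpud1 to -0.065 under quantile normalization. Leaving out 1 library at a time gave 0 to 4 of the 50 called in old mice, 0 to 6 for age in MANF mice and 0 to 3 for the mean effect. The other ER genes called then ran from 0 to 3, 0 to 8 and 0 to 5 in these comparisons, and from 0 to 1 for age in control mice. All tested genes called then ran from 2 to 146, 216 to 1125 and 59 to 174, and from 37 to 132 for age in control mice. In young mice the same omissions gave -0.27 to 0.0072 for Hspa5, -0.12 to 0.12 for Hsp90b1, -0.040 to 0.15 for Xbp1, -0.11 to 0.28 for Creld2, -0.13 to 0.18 for Herpud1, -0.041 to 0.26 for Hyou1 and -0.052 to 0.40 for Ern1. Their medians over the 50 genes ran from -0.11 to -0.01 in young mice and from -0.10 to 0.01 for age in control mice. The cause was not tested. The replicate numbers are shared labels only. With the replicate block, 3 of the 50 were called for age in MANF mice, as Ssr3 had an adjusted limma p of 0.0569, and 0 in the other comparisons. For age in MANF mice that block called 459 of all tested genes.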
